A study of Arabidopsis thaliana with 12 samples.

Results

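The genes described here encode subunits of the nuclear DNA-dependent RNA polymerases of Arabidopsis thaliana. They were chosen by their annotated symbol, NRP followed by a letter from A to E and a digit, on probe sets annotated with 1 gene. Of 12 such genes the 10 with the highest mean signal over the 12 arrays were kept, among 13350 genes named on the array. That mean signal chose the members and is given as a description. NRPB9A was the last gene kept, with a mean of 3.20 (log2 signal), and NRPC1 and NRPD7 lay just outside, with 3.08 and 2.84. The mean of the Col-0 arrays or of the sco3 arrays alone would have kept the same 10 genes. The mean of the phyb or the sco3phyb arrays alone would have kept 9 of them, with NRPC1 in place of NRPB9A.

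The series compared whole seedlings that were 4 days old and had grown on agar in days of 16 h light and 8 h dark. The genotypes were the double mutant sco3phyb, the single mutants phyb and sco3, and the reference line Col-0, with 3 biological replicates each and 1 Affymetrix ATH1 array per replicate. PHYB encodes the light receptor phytochrome B, and SCO3 (SNOWY COTYLEDON 3) is named for the pale cotyledons of its mutant. The sources used here do not give the alleles of both mutants or say whether seedlings were pooled for an extract. No single-gene probe set was annotated to SCO3 or PHYB, so the mutated genes are not analysed here.

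Plant nuclei hold the RNA polymerases Pol I to Pol V. Pol I makes the large ribosomal RNA precursor in the nucleolus, Pol II makes messenger RNA, and Pol III makes transfer RNA, 5S ribosomal RNA and other small RNAs. Pol IV and Pol V are plant enzymes that evolved from Pol II and act in RNA-directed DNA methylation. Each enzyme has a largest and a second-largest subunit that form the catalytic centre, and smaller subunits of which several are shared between enzymes. By symbol the 10 genes fell into 2 of Pol I, 6 of Pol II, 1 of Pol III and 1 of Pol V. The annotation also lists Pol IV or Pol V names for 5 of the 6 Pol II genes, NRPB6A, NRPB6B, NRPB9A, NRPB9B and NRPB12.

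Values are log2 signals after RMA, the summary of a probe set's background-corrected and normalized probes, so a difference of 1 is a change of 2-fold. Differences come from 1 limma fit over the 12 arrays, are given ± the moderated standard error, and were called at an adjusted p under 0.05 over all 22746 probe sets. Signals of different probe sets have no common scale, and levels are therefore not compared between genes. The array medians lay between 4.53 and 4.74. Of the 12 arrays Col-0 replicate 3 was least like its group: it correlated at 0.978 on average with the other Col-0 arrays, against 0.986 for each of those. Without it 6 of the 10 genes were called in phyb over Col-0 and 7 in sco3phyb over Col-0, against 5 and 8 with it. Of all 22746 probe sets 4259 and 3850 were called higher without it, against 3996 and 3827 with it. In a whole seedling, fewer cells of a type and less RNA per cell cannot be told apart. Of the fixed cell type markers, LHCB4.2 of green cells (1 of 10 symbols named on the array) had a signal from 11.1 to 12.3 on all arrays, and the root hair markers EXPA7 and EXPA18 (2 of 5) from 4.36 to 7.77. From the 6 symbols listed for guard cells 2 were named, FMA and SPCH, with signals from 3.04 to 5.05, and of the 10 seed storage symbols 0 were named.

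The comparison of phyb with Col-0 asked which subunit genes differed in the phyb mutant. Transcripts of NRPA1 and NRPA2, the large subunits of Pol I, of NRPC2, the second-largest of Pol III, and of the small subunit NRPB12 rose in phyb, by 1.70-fold to 2.24-fold. In total 5 of the 10 genes rose and 0 fell, where 17.6% of all probe sets were called higher and 15.9% lower. The members had a median difference of 0.52, against -0.06 over all probe sets. The 3 values of phyb and Col-0 did not overlap for 8 of the 10 genes, as for 45.8% of all probe sets. Among these 8 genes NRPB6B lay lower in phyb, without a call (-0.21 ± 0.11, adjusted p = 0.158).

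NRPA2 (AT1G29940) encodes the second-largest subunit of Pol I. Its signal was 5.66, 6.06 and 5.995 on the sco3phyb arrays, 5.65, 5.43 and 5.46 on the phyb arrays, 4.87, 4.80 and 4.68 on the sco3 arrays and 4.33, 4.69 and 4.03 on the Col-0 arrays. All 6 arrays of the 2 phyb genotypes lay above all 6 arrays with intact PHYB, and the sco3 and Col-0 values overlapped, since Col-0 replicate 2 reached the sco3 range. NRPA2 rose in phyb by 1.16 ± 0.16 over Col-0 (2.24-fold, adjusted p = 0.000132) and in sco3phyb by 1.13 ± 0.16 over sco3 (2.18-fold, adjusted p = 0.000217). The order of the genotype means was sco3phyb (5.91 ± 0.22, SD, n = 3), phyb (5.51 ± 0.12), sco3 (4.78 ± 0.10) and Col-0 (4.35 ± 0.33). The neighbours sco3phyb and phyb differed by 0.39 ± 0.16 (adjusted p = 0.131), and sco3 and Col-0 by 0.43 ± 0.16 (adjusted p = 0.140), so neither step passed the test. With array weights the first step was called (adjusted p = 0.00773), and without Col-0 replicate 2 the second (adjusted p = 0.0375). The lowest NRPA2 value was that of Col-0 replicate 3, and without that array the rise in phyb was 1.004 (adjusted p = 0.000225).

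NRPA1 (AT3G57660), the largest Pol I subunit, showed the same high and low groups with one wide group. Its signal was 4.92, 5.27 and 4.99 in sco3phyb, 4.85, 4.48 and 4.91 in phyb, 4.14, 4.27 and 3.01 in sco3 and 3.60, 3.85 and 3.74 in Col-0. The sco3 replicates spread over more than a log2 unit, with replicate 3 below every Col-0 array and replicates 1 and 2 above every Col-0 array. NRPA1 rose in phyb by 1.01 ± 0.26 over Col-0 (2.02-fold, adjusted p = 0.00946) and in sco3phyb by 1.25 ± 0.26 over sco3 (2.38-fold, adjusted p = 0.00317). Its difference between sco3 and Col-0 was 0.08 ± 0.26 (adjusted p = 0.891), and 0.48 (adjusted p = 0.143) without sco3 replicate 3. Without that array the rise in sco3phyb over sco3 was 0.85 (adjusted p = 0.00244).

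**Figure D1:**
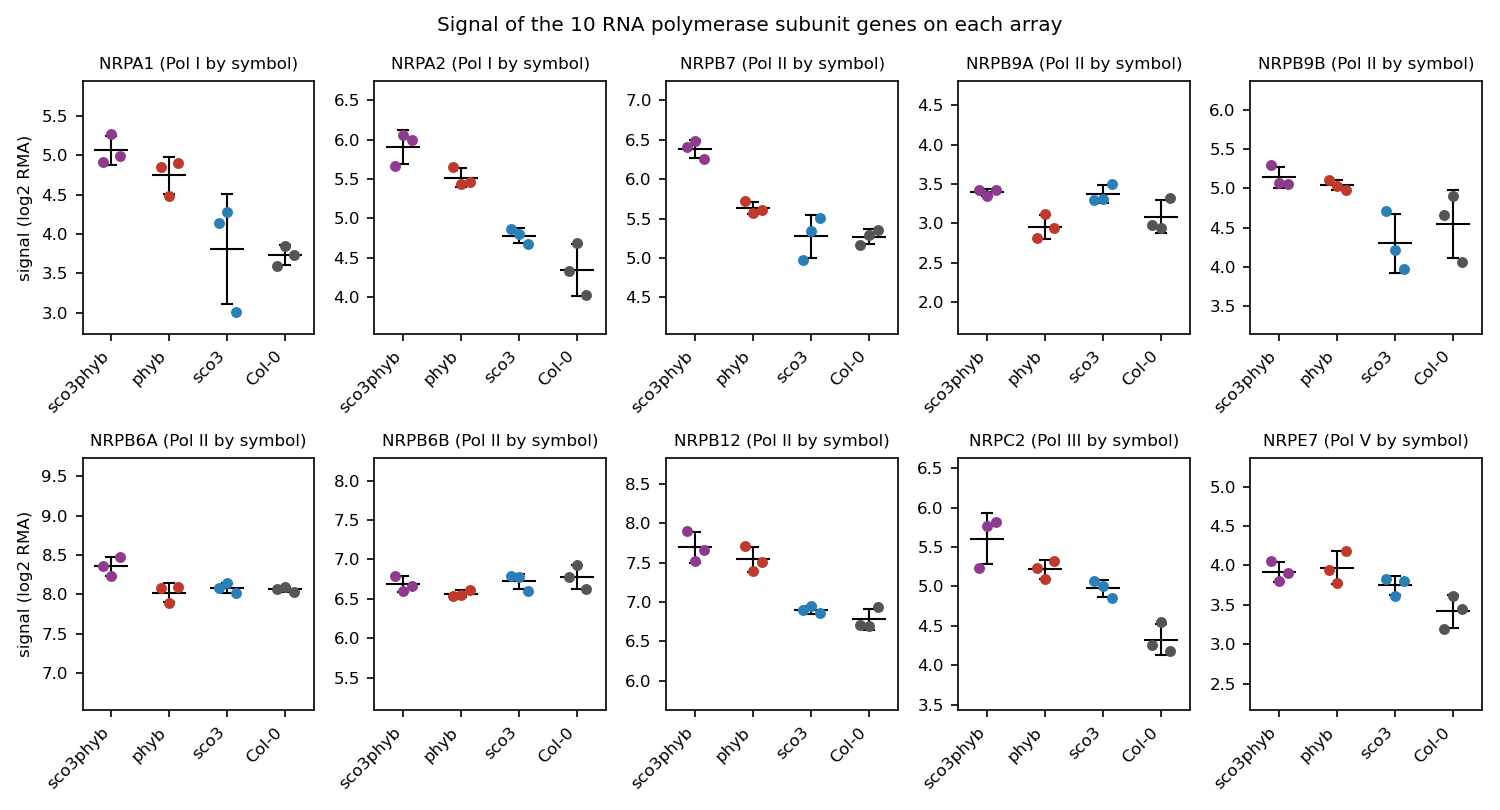
Signal (log2 RMA, vertical axis) of each of the 10 subunit genes on the 12 arrays, with the genotypes sco3phyb, phyb, sco3 and Col-0 from left to right. Points are arrays, bars are the mean ± SD of 3, and every panel spans the same number of log2 units around the gene's own mean. NRPA1, NRPA2 and NRPB12 stand higher in both genotypes that carry phyb, and NRPB7 stands apart in sco3phyb, at 6.26 to 6.49.

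NRPC2 (AT5G45140) is the second-largest subunit of Pol III. Its signal was 5.23, 5.77 and 5.82 in sco3phyb, 5.23, 5.09 and 5.32 in phyb, 5.06, 5.01 and 4.85 in sco3 and 4.26, 4.54 and 4.18 in Col-0. Here the Col-0 arrays lay below the 9 mutant arrays, and the values of sco3 and phyb did not overlap, though phyb replicate 2 and sco3 replicate 1 differed by only 0.03. NRPC2 rose over Col-0 in sco3phyb by 1.28 ± 0.16 (2.43-fold, adjusted p = 6.94e-05), in phyb by 0.89 ± 0.16 (1.85-fold, adjusted p = 0.000824) and in sco3 by 0.65 ± 0.16 (1.57-fold, adjusted p = 0.0361). The largest Pol III subunit, NRPC1, lay outside the 10 genes and was dim, with signals from 2.49 to 3.68. NRPC1 rose by 0.48 ± 0.16 in phyb over Col-0 (adjusted p = 0.0378) and by 0.62 ± 0.16 in sco3phyb over sco3 (adjusted p = 0.0115). After each array was centred on its median the first of these was not called (0.33, adjusted p = 0.122).

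Of the 6 genes with a Pol II symbol NRPB12 was called in phyb over Col-0 and the other 5 were not. NRPB12 (AT5G41010), a small zinc-binding subunit shared by the nuclear polymerases, had a signal of 7.90, 7.52 and 7.66 in sco3phyb, 7.71, 7.40 and 7.51 in phyb, 6.90, 6.95 and 6.86 in sco3 and 6.71, 6.70 and 6.93 in Col-0. The phyb genotypes again lay above the others with no overlap. NRPB12 rose by 0.76 ± 0.12 in phyb over Col-0 (1.70-fold, adjusted p = 0.000455) and by 0.79 ± 0.12 in sco3phyb over sco3 (1.73-fold, adjusted p = 0.000435).

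NRPB6A (AT5G51940) and NRPB6B (AT2G04630) are copies of another small subunit, which in yeast is shared by its polymerases and helps to assemble them. In phyb neither copy was called against Col-0, with differences of -0.04 ± 0.10 for NRPB6A and -0.21 ± 0.11 for NRPB6B (adjusted p = 0.789 and 0.158). NRPB6B had signals of 6.79, 6.60 and 6.67 in sco3phyb, 6.53, 6.55 and 6.62 in phyb, 6.78, 6.77 and 6.61 in sco3 and 6.78, 6.93 and 6.62 in Col-0. Its lowest Col-0 value and highest phyb value both round to 6.62. Once each array's median was subtracted NRPB6B was called lower in phyb, by -0.36 (adjusted p = 0.0251). NRPB6A had 8.36, 8.23 and 8.48 in sco3phyb, 8.09, 7.89 and 8.10 in phyb, 8.08, 8.15 and 8.02 in sco3 and 8.06, 8.10 and 8.04 in Col-0. The 3 sco3phyb values of NRPB6A were its highest. NRPB6A was called higher in sco3phyb over phyb by 0.33 ± 0.10 (adjusted p = 0.0459) and over Col-0 by 0.29 ± 0.10 (adjusted p = 0.0488), both close to the threshold. The second call held in 1 of the 12 fits that each left out 1 array, with adjusted p from 0.0405 to 0.183, and the first in 2 of 12, with adjusted p from 0.0341 to 0.193.

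NRPB9A (AT3G16980) and NRPB9B (AT4G16265) are copies of a non-catalytic subunit that in yeast bears on the fidelity of Pol II. NRPB9B had signals of 5.29, 5.07 and 5.06 in sco3phyb, 5.11, 5.03 and 4.98 in phyb, 4.71, 4.22 and 3.97 in sco3 and 4.66, 4.90 and 4.07 in Col-0. The 6 arrays of the phyb genotypes lay close together, within 0.31 on the log2 scale, while the sco3 and Col-0 arrays were spread and overlapped. NRPB9B rose by 0.84 ± 0.21 in sco3phyb over sco3 (adjusted p = 0.00904), and its difference of 0.50 ± 0.21 in phyb over Col-0 was not called (adjusted p = 0.0877). Its call in sco3phyb over Col-0 (0.60 ± 0.21, adjusted p = 0.0482) was kept in 3 of the 12 fits without 1 array, with values from 0.36, without Col-0 replicate 3, to 0.77. NRPB9A was dim, with 3.42, 3.34 and 3.42 in sco3phyb, 2.82, 3.12 and 2.94 in phyb, 3.30, 3.30 and 3.50 in sco3 and 2.98, 2.95 and 3.32 in Col-0. NRPB9A had its higher means in the 2 genotypes with sco3, and its difference in phyb over Col-0 was -0.13 ± 0.12 (adjusted p = 0.468). The difference between the copies was not tested.

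NRPB7 (AT5G59180) pairs with NRPB4 to form the stalk of Pol II. Its signal was 6.40, 6.49 and 6.26 in sco3phyb, 5.72, 5.57 and 5.61 in phyb, 4.97, 5.35 and 5.50 in sco3 and 5.16, 5.29 and 5.36 in Col-0. The sco3phyb arrays stood above the 9 others, with a gap of 0.54 on the log2 scale to the nearest of them, and the phyb arrays stood just above those of sco3 and Col-0. In phyb the difference from Col-0 was 0.36 ± 0.13 (adjusted p = 0.0559), and in sco3phyb NRPB7 rose by 1.11 ± 0.13 over Col-0 (2.16-fold, adjusted p = 6.02e-05) and by 0.75 ± 0.13 over phyb (1.68-fold, adjusted p = 0.00229).

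NRPE7 (AT4G14660) is the Pol V counterpart of NRPB7. It had 4.06, 3.80 and 3.90 in sco3phyb, 3.95, 3.78 and 4.19 in phyb, 3.83, 3.61 and 3.80 in sco3 and 3.20, 3.61 and 3.45 in Col-0. The arrays of all 3 mutants lay above those of Col-0, and the 3 mutants overlapped. The lowest sco3 value and the highest Col-0 value both round to 3.61, and the difference of 0.33 ± 0.14 was not called (adjusted p = 0.189). NRPE7 rose by 0.55 ± 0.14 in phyb over Col-0 (adjusted p = 0.00776) and by 0.50 ± 0.14 in sco3phyb over Col-0 (adjusted p = 0.0148, and 0.0559 after each array's median was subtracted). Its difference in sco3phyb over sco3 was 0.18 ± 0.14 (adjusted p = 0.373). NRPD7, its counterpart by symbol in Pol IV, lay outside the 10 genes, with signals from 2.55 to 3.18 and a difference of 0.29 ± 0.11 in phyb over Col-0 (adjusted p = 0.0660). In sco3phyb over sco3 NRPD7 was called higher by 0.33 ± 0.11 (adjusted p = 0.0470), and not after median centring (0.15, adjusted p = 0.307).

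Sorted by the polymerase of the symbol, both Pol I genes rose in phyb over Col-0, as did the 1 Pol III gene and the 1 Pol V gene. Of the 6 Pol II genes 1 rose, the shared subunit NRPB12. Over all probe sets 17.6% were called higher. The median difference was 1.09 for Pol I, 0.16 for Pol II, 0.89 for Pol III and 0.55 for Pol V. In sco3phyb over Col-0 the medians were 1.44, 0.45, 1.28 and 0.50 in the same order, with 4 of the 6 Pol II genes called, where 16.8% of all probe sets were called higher. After median centring 2 of those 4 remained, NRPB7 and NRPB12, where 2847 of all 22746 probe sets were called higher. These groups hold 1 to 6 genes, and the Pol II group does not stand for Pol II alone. All genes of that group but NRPB7 also carry Pol IV or Pol V names. Whether the polymerases differ from each other was not tested.

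The comparison of sco3phyb with sco3 asked the same in the sco3 background. Its mean differences come from 6 arrays that do not enter those of phyb over Col-0. Both comparisons share 1 estimate of each gene's spread over all 12 arrays, so their calls are not independent. Of the 10 genes 6 rose and 0 fell, where 15.9% of all probe sets were called higher. The values did not overlap for 7 of the 10 genes, as for 47.0% of all probe sets, and the median difference was 0.71, against -0.04 over all probe sets. NRPA1, NRPA2, NRPB12 and NRPC2 were called higher in both phyb comparisons, 4 of 10 genes, where 10.3% of all probe sets were. NRPE7 was called in phyb over Col-0 and not in sco3phyb over sco3, and NRPB7 and NRPB9B the other way round. In phyb over Col-0 NRPB7 lay near the threshold and was called under 3 of 7 other settings (adjusted p from 0.0296 to 0.194) and in 3 of the 12 fits without 1 array (without Col-0 replicate 3, sco3 replicate 1 or sco3 replicate 3). NRPB9B was called there with the replicate number as a block (adjusted p = 0.0442) and without Col-0 replicate 2 (adjusted p = 0.0319). The test of that difference, the interaction, called NRPB7 and neither NRPE7 (-0.38 ± 0.20, adjusted p = 0.320) nor NRPB9B (0.34 ± 0.30, adjusted p = 0.600).

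**Figure D2:**
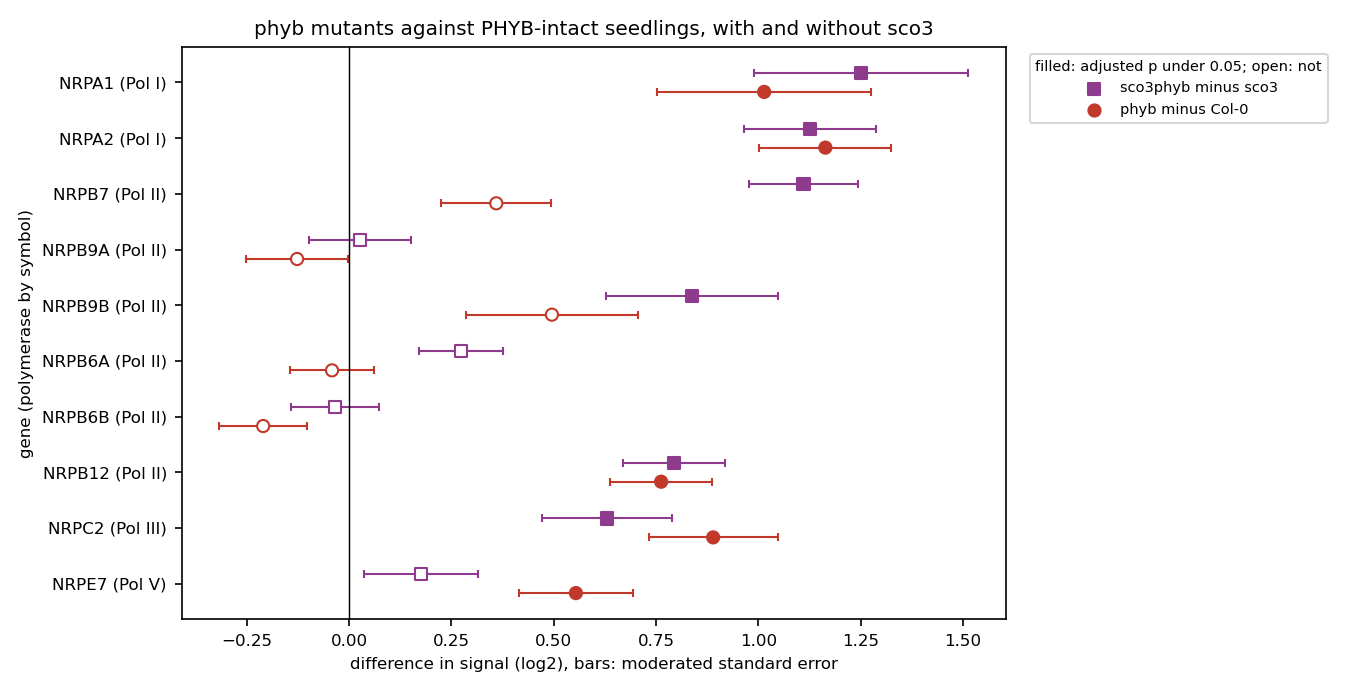
Difference in signal (log2, horizontal axis) of each subunit gene between phyb mutants and seedlings with intact PHYB, in the sco3 background (squares, sco3phyb minus sco3) and with intact SCO3 (circles, phyb minus Col-0). Bars are moderated standard errors, and filled symbols mark an adjusted p under 0.05. NRPA1, NRPA2, NRPB12 and NRPC2 are filled in both, while NRPB7 lies at 1.11 in the sco3 background and at 0.36 without it.

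In the double mutant against Col-0, which shares its Col-0 arrays with both single-mutant comparisons, 8 of the 10 genes rose and 0 fell. Over all probe sets 16.8% were called higher and 12.9% lower. The values did not overlap for 9 of the 10 genes, as for 41.6% of all probe sets. The difference was 1.56 ± 0.16 for NRPA2 (2.94-fold, adjusted p = 1.85e-05) and 1.33 ± 0.26 for NRPA1 (2.52-fold, adjusted p = 0.00198). NRPB6B (-0.09 ± 0.11, adjusted p = 0.585) and NRPB9A (0.31 ± 0.12, adjusted p = 0.0801) were not called. After subtraction of each array's median 5 of the 10 genes were called: NRPA1, NRPA2, NRPB7, NRPB12 and NRPC2. Of all 22746 probe sets 2847 were then called higher. That scaling moved the median of all probe sets in sco3phyb over Col-0 to -0.15, against -0.02 as deposited, and in phyb over Col-0 to -0.20, against -0.06. Relative to the array medians NRPA2 was higher by 1.02 in phyb and by 1.43 in sco3phyb, both over Col-0 (adjusted p = 0.000446 and 4.72e-05).

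The comparison of sco3 with Col-0 asked what sco3 changed where PHYB was intact. NRPC2 alone of the 10 genes was called, where 2.81% of all probe sets were called higher. The groups did not overlap for 2 of the 10 genes, NRPC2 and NRPE7, as for 23.3% of all probe sets, and the median difference was 0.10, against 0.02 over all probe sets. The NRPC2 call was kept in 6 of the 12 fits that each left out 1 array and was lost without Col-0 replicates 1 and 3, each sco3 replicate and phyb replicate 3, with adjusted p up to 0.103. It was also lost with array weights, with the replicate number as a block and with the compared genotypes fitted alone (adjusted p up to 0.102), and the difference stayed above 0 in all of these fits.

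In the phyb background the comparison of sco3phyb with phyb called 3 of the 10 genes higher, NRPB7, NRPB9A and NRPB6A, where 7.76% of all probe sets were called higher. The groups did not overlap for 5 of the 10 genes, as for 38.7% of all probe sets. NRPB9A rose by 0.44 ± 0.12 (1.35-fold, adjusted p = 0.0320), and the call was lost without phyb replicates 1 and 3 or any 1 of the sco3phyb replicates, with adjusted p up to 0.115. NRPB9A lies on chromosome 3 near SCO3, within the 300 named genes measured on that side of it. Among the 600 named genes around SCO3, 17.5% were called in sco3phyb over phyb and 13.2% of the named genes elsewhere, and in sco3 over Col-0 8.83% and 4.31%. The part of this linkage in the NRPB9A difference was not tested. Some cell type markers also fell in sco3phyb against phyb. The log2 differences were -1.22 ± 0.37 for EXPA7 of root hairs (adjusted p = 0.0427), -0.35 ± 0.10 for LHCB4.2 of green cells (adjusted p = 0.0348) and -0.57 ± 0.13 for AUR1 of dividing cells (adjusted p = 0.0119). FMA and SPCH, from the guard cell list, lay higher without a call, by 0.38 ± 0.17 and 0.18 ± 0.19 (adjusted p = 0.173 and 0.623). The second root hair marker, EXPA18, differed by -0.96 ± 0.38 (adjusted p = 0.119), and the part of these cells in the subunit results was not tested. None of the 10 genes was called higher in both sco3 comparisons, where 0.774% of all probe sets were.

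The interaction is the sco3 difference in the phyb background less that with intact PHYB. It called NRPB7 alone of the 10 genes, where 2.65% of all probe sets were called higher, at 0.75 ± 0.19 (adjusted p = 0.0404). NRPB7 differed by 0.75 ± 0.13 between sco3phyb and phyb, against 0.002 ± 0.134 between sco3 and Col-0. The interaction call rests on an adjusted p near the threshold and was kept in 2 of the 12 fits without 1 array, those without Col-0 replicate 1 and sco3 replicate 3, with values from 0.60 to 0.87 and adjusted p from 0.0241 to 0.100. With the replicate number as a block the adjusted p was 0.0579. For NRPA2 the interaction was -0.04 ± 0.23 and for NRPB12 0.03 ± 0.18 (adjusted p = 0.956 and 0.953), and both signs turned under some alternatives.

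**Figure D3:**
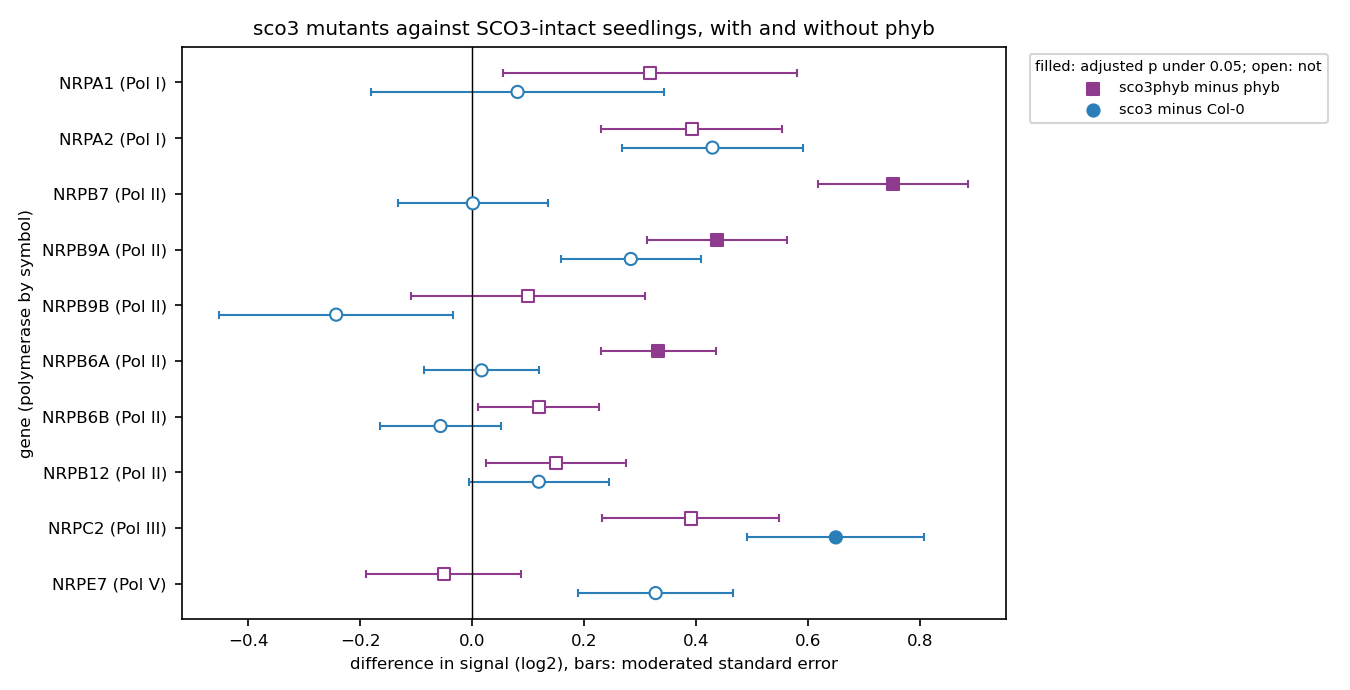
Difference in signal (log2, horizontal axis) of each subunit gene between sco3 mutants and seedlings with intact SCO3, in the phyb background (squares, sco3phyb minus phyb) and with intact PHYB (circles, sco3 minus Col-0). Bars are moderated standard errors, and filled symbols mark an adjusted p under 0.05. NRPB7 lies at 0.75 in the phyb background and near 0 with intact PHYB, and NRPC2 is filled with intact PHYB, at 0.65.

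The pattern of NRPA2 over the arrays was compared with that of the other probe sets among the 13513 with 1 named gene. Among the subunit genes the Pearson correlation with NRPA2 over the 12 arrays was highest for NRPC2 (0.945), NRPA1 (0.879) and NRPB12 (0.872), and lowest for NRPB6B (-0.361). The dim NRPC1 had 0.932 and NRPB9A 0.05. The highest over all named genes were AT4G12750 (0.987), AT2G43530 (0.987), CYP71 (AT3G44600, 0.979), AT1G16350 (0.978) and AT1G75280 (0.975). CYP71 encodes a cyclophilin. These correlations are descriptions: the 12 points share 4 genotypes and the arrays' scaling, and the differences between genotype means set most of their size. All 5 genes rose in phyb over Col-0, from 0.52 ± 0.12 for CYP71 to 1.65 for AT1G75280, and none was called in sco3 over Col-0. They were picked for their likeness to NRPA2 on these same arrays, so these calls repeat the choice and are no separate evidence.

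**Figure D4:**
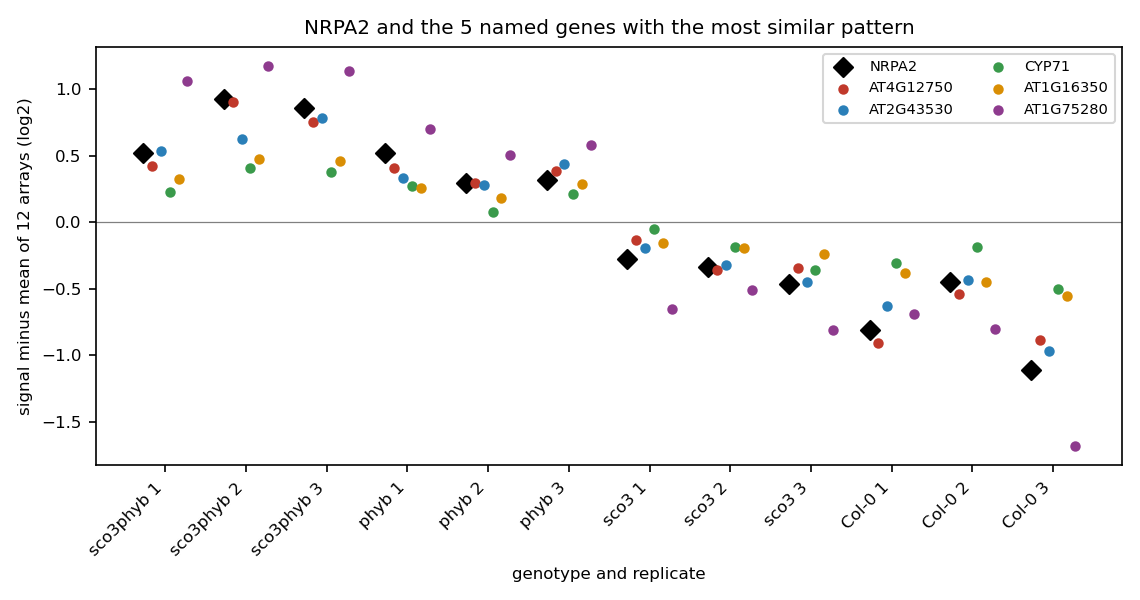
Signal minus the gene's mean over the 12 arrays (log2, vertical axis) for NRPA2 (diamonds) and the 5 named genes with the highest correlation with it (circles), for each array of sco3phyb, phyb, sco3 and Col-0. All 6 genes lie above 0 on the 6 arrays that carry phyb and below 0 on the 6 arrays with intact PHYB, and AT1G75280 has the widest range.

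Other genes of nuclear transcription and of ribosome assembly were read from fixed lists, of which few were named on the array. The products of Pol I are used by ribosome assembly factors, of which 2 of 39 listed symbols were named. PES (AT5G14520), which acts on the large ribosomal subunit, had 7.62, 7.74 and 7.51 in sco3phyb, 7.66, 7.41 and 7.81 in phyb, 7.20, 7.27 and 7.50 in sco3 and 6.95, 7.10 and 7.10 in Col-0. NOB1 (AT5G41190), which in yeast trims the small subunit's RNA, had 6.83, 6.69 and 6.75 in sco3phyb, 6.82, 6.66 and 6.78 in phyb, 6.08, 6.33 and 5.72 in sco3 and 5.95, 6.14 and 6.09 in Col-0. Both were higher in every array of the phyb genotypes than in every array of Col-0. Values did not overlap for 45.8% of all probe sets in phyb against Col-0 and for 41.6% in sco3phyb against Col-0. The sco3 arrays of PES also lay above those of Col-0 and overlapped with phyb. In phyb over Col-0 PES rose by 0.58 ± 0.13 and NOB1 by 0.69 ± 0.14 (adjusted p = 0.00333 and 0.00189). Over all probe sets 17.6% were called higher there. In sco3phyb over sco3 NOB1 rose by 0.71 ± 0.14 (adjusted p = 0.00193), and PES was not called (0.30 ± 0.13, adjusted p = 0.092).

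Genes of transcription initiation and elongation were read from 42 listed symbols and, apart from these, from every Mediator gene named MED and a number. Together 7 were named on the array, most of them Mediator genes. Of these 0 rose and 2 fell in phyb over Col-0, with a median of -0.23, and 0 rose and 3 fell in sco3phyb over Col-0, with a median of -0.34. Over all probe sets 15.9% were called lower in phyb and 12.9% in sco3phyb. MED6 (AT3G21350) and MED19A (AT5G12230), subunits of the Mediator complex that joins activators to Pol II, fell in phyb, with log2 differences of -0.98 ± 0.14 and -0.81 ± 0.16 against Col-0 (adjusted p = 0.000149 and 0.00182). MED6 had 4.75, 4.84 and 5.08 in sco3phyb, 4.41, 4.26 and 4.30 in phyb, 5.13, 5.44 and 5.15 in sco3 and 5.39, 5.47 and 5.05 in Col-0. Its phyb values were the lowest on all arrays, and in sco3phyb MED6 was higher than in phyb by 0.57 ± 0.14 (adjusted p = 0.0144). MED6 lies on chromosome 3 between NRPB9A and NRPD7, among the 600 named genes around SCO3. The part of this linkage in the MED6 difference was not tested. SPT4-1 (AT5G08565), an elongation factor, had 3.49, 3.54 and 3.93 in sco3phyb, 4.51, 4.34 and 4.45 in phyb, 4.47, 4.47 and 4.48 in sco3 and 4.92, 4.70 and 4.35 in Col-0. SPT4-1 was lowest in sco3phyb, where it fell by 1.01 ± 0.15 against Col-0 (adjusted p = 0.000288) and by 0.78 ± 0.15 against phyb (adjusted p = 0.00378).

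**Figure D5:**
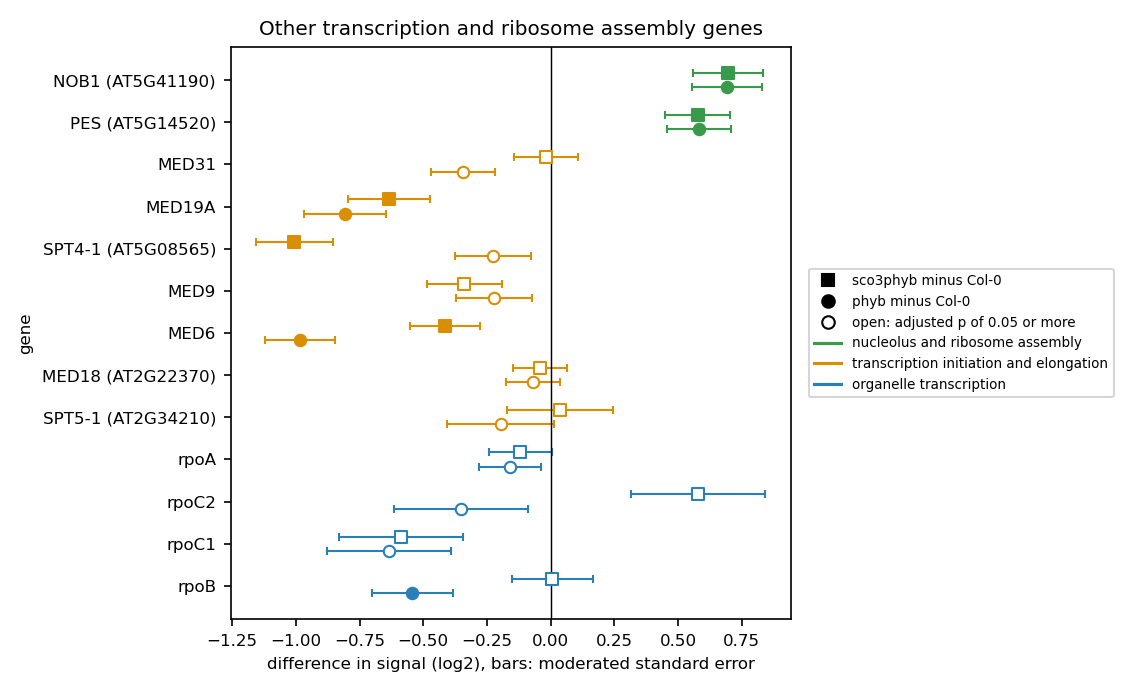
Difference in signal (log2, horizontal axis) against Col-0 of the named genes of 3 fixed lists, in sco3phyb (squares) and in phyb (circles), with moderated standard errors. Filled symbols mark an adjusted p under 0.05. NOB1 and PES lie above 0 in both mutants, MED6 and MED19A below 0 in both, and rpoB is filled in phyb alone, at -0.54.

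The plastid has its own RNA polymerase, whose core is encoded in the plastid genome. Of its 4 genes rpoB fell in phyb, with a log2 difference of -0.54 ± 0.16 from Col-0 (adjusted p = 0.0187), where 15.9% of all probe sets were called lower. In sco3phyb over Col-0 0 were called, where 16.8% of all probe sets were called higher and 12.9% lower. In sco3phyb over phyb rpoC2 and rpoB were called higher, by 0.93 ± 0.26 and 0.55 ± 0.16 (adjusted p = 0.0309 and 0.0345). Over all probe sets 7.76% were called higher there. In sco3phyb over sco3 rpoC1 was called lower, by -0.81 ± 0.24 (adjusted p = 0.0239), where 13.4% of all probe sets were. The rpoB probe set was dim, with 2.26, 2.19 and 2.29 in phyb, below the lower quartile of those arrays (2.62 to 2.65), which limits how far its differences can be read. Of the 29 listed symbols of RNA-directed DNA methylation 0 were named, so the partners of Pol IV and Pol V are not analysed here. Of the 15 fixed symbols of dividing cells 1 was named, AUR1, a mitotic kinase. AUR1 rose by 0.67 ± 0.13 in phyb over Col-0 (adjusted p = 0.00199) and by 0.46 ± 0.13 in sco3phyb over sco3 (adjusted p = 0.0214). In sco3phyb over Col-0 AUR1 differed by 0.09 ± 0.13 (adjusted p = 0.654). The part of dividing cells in the subunit genes' differences was not tested. The green cell marker LHCB4.2 fell against Col-0 in sco3phyb, with a log2 difference of -0.97 ± 0.10 (adjusted p = 2.06e-05), and in phyb, with -0.62 ± 0.10 (adjusted p = 0.000486), and its part in the subunit results was not tested. The guard cell marker FMA also fell, by 0.50 ± 0.17 in sco3phyb (adjusted p = 0.0444) and by 0.89 ± 0.17 in phyb (adjusted p = 0.00162), both log2 differences from Col-0. SPCH, from the same list, was not called, at -0.05 ± 0.19 in sco3phyb and -0.23 ± 0.19 in phyb (adjusted p = 0.881 and 0.394).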

How the data were processed

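The deposited values are log2 signals per probe set of 12 Affymetrix ATH1 arrays. Per the submitters' processing notes the authors used RMA and Partek; the sources used here give no versions or settings. The authors' values were used as deposited, with 64 control probe sets left out and 22746 tested. Arrays give no read depth, no detection call is given here, and the number of arrays limits the precision. The platform annotation gave 1 gene to 13513 probe sets and several to 503. A probe set that names both NRPB3 and NRPE3B was therefore not used, and copies such as NRPB6A and NRPB6B may share signal. Locus names, synonyms and gene order come from the RefSeq gene table of assembly TAIR10.1.

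A mean per genotype was fitted to all 12 arrays with limma 3.58.1 (lmFit and eBayes, R 4.3.3), with two-sided p-values adjusted by Benjamini-Hochberg within each contrast over all probe sets. The code of the fit was also run on data simulated with the same spread on every array for each probe set, and no result here rests on that run. The rule for named genes was every subunit gene, the 5 genes most correlated with NRPA2, and up to 3 called genes per list. The members and lists were chosen with earlier results of these data known. Replicates are those of the titles, and p-values measure the spread between them. Alternatives were array weights, a mean-variance trend, median centring, a repeated quantile normalization, the compared genotypes fitted alone, the replicate number as a block, a filter that dropped the dimmest 40% of probe sets, and leaving out each array. Figures were drawn with matplotlib 3.10.9.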

Additional observations from a re-analysis of the deposited data

Results flagged for a closer look

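NRPB7, of the Pol II stalk, was singled out because its sco3 difference was not the same in both PHYB backgrounds by a test of the difference itself. The interaction was 0.7505 on the log2 scale (± 0.19, adjusted p = 0.0404), from 0.75 ± 0.13 in the phyb background and 0.002 ± 0.134 with intact PHYB. All 3 sco3phyb arrays exceeded all 3 phyb arrays. The call was lost with the replicate number as a block (adjusted p = 0.0579) and was kept in 2 of the 12 fits without 1 array, those without Col-0 replicate 1 and sco3 replicate 3 (adjusted p from 0.0241 to 0.100 over the 12).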

How the results depend on the processing

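The rises of NRPA1, NRPA2, NRPB12, NRPC2 and NRPE7 in phyb over Col-0, of NRPA1, NRPA2, NRPB7, NRPB12 and NRPC2 in sco3phyb over Col-0, and all 6 in sco3phyb over sco3 were kept in each of the 12 fits without 1 array and under the other alternatives. Of 10 genes, 1 was called in sco3 over Col-0 and 0 with array weights, 0 with the replicate block and 0 with the compared genotypes alone, and 0 to 2 without 1 array. In sco3phyb over Col-0 the count was 8, against 5 after median centring and 5 to 7 without 1 array (5 without Col-0 replicate 1 or sco3phyb replicate 1), and in sco3phyb over phyb 3, against 5 with array weights and 1 to 3 without 1 array (1 without phyb replicate 1, phyb replicate 3 or sco3phyb replicate 3). The interaction called 1 gene, 0 with the replicate block and 0 to 1 without 1 array. The replicate numbers did not pair the arrays: same-numbered arrays' residuals correlated from -0.27 to 0.15, 4 of 12 arrays correlated best with their own number, and the block left the other counts within 1.5 times. The cause of these changes was not tested.

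Signs turned in differences that were not called. With array weights the interaction was 0.15 for NRPA2 and -0.0351 for NRPB12. With a repeated quantile normalization it was -0.005 for NRPB12, sco3 minus Col-0 was -0.0007 for NRPB6A, and sco3phyb minus sco3 was -0.0225 for NRPB9A (-0.15 after median centring). Without 1 array the interaction ran from -0.16 to 0.47 for NRPA1, from -0.21 to 0.12 for NRPA2 and from -0.0712 to 0.119 for NRPB12. In sco3 over Col-0 the range was -0.15 to 0.48 for NRPA1, -0.0142 to 0.0481 for NRPB6A, -0.13 to 0.018 for NRPB6B and -0.11 to 0.15 for NRPB7. In phyb over Col-0 NRPB6A ran from -0.078 to 0.0266, in sco3phyb over sco3 NRPB6B from -0.0917 to 0.01 and NRPB9A from -0.0079 to 0.0927, and in sco3phyb over phyb NRPE7 from -0.15 to 0.0579. Of all probe sets 1130 were called in sco3 over Col-0, against 117 with the compared genotypes alone, 3398 in sco3phyb over phyb, against 6505 with array weights, and 1143 in the interaction, against 1957 with array weights. Without 1 array the first of these counts was as low as 396 (without sco3 replicate 3), the second 2218 (without phyb replicate 2) and the third 661 (without phyb replicate 3). Median centring moved the share of higher calls to 30.9% in phyb over Col-0 (52.5% as deposited), 36.6% in sco3phyb over Col-0 (56.7%), 26.4% in sco3phyb over sco3 (54.1%) and 67.4% in sco3 over Col-0 (56.5%). Probe sets near the dim end, such as NRPB9A, lie close to the arrays' floor, which limits their differences.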
